A study of Mus musculus with 14 samples.

Results

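Il1a, Il1b, Tnf, Ccl2, Ccl3, Ccl4, Nfkbia, Socs3, Tlr2 and Unc93b1 are 10 genes of innate immune signalling. The 10 were chosen by symbol, with earlier results of these data known. All were found among the 22485 gene symbols of the deposited count table. They were followed in 14 RNA-seq libraries from the hippocampus of C57BL/6 mice of wild-type genotype, dissected into CA1, CA3 and DG (the dentate gyrus). Control tissue was homogenised directly. Dissociated tissue was first held for 75 min at room temperature with pronase, a protease mixture, at 1 mg/ml in artificial cerebrospinal fluid, and was then vortexed, spun down and triturated in fluid containing 1% FBS, so that the comparison asks which transcripts differ after enzymatic dissociation. CA1 had 3 control and 3 dissociated libraries, CA3 had 2 and 2, and DG had 2 and 2. The authors' sample table gives a common date, sequencing job and mouse (1 of each) for the 14 libraries. The p-values therefore measure the spread between tissue samples, which may all come from 1 animal, and no batch could be separated.

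IL-1 alpha, IL-1 beta and TNF are cytokines that start and amplify inflammation, and CCL2, CCL3 and CCL4 are chemokines that attract monocytes and other leukocytes. TLR2 is a receptor for bacterial lipoproteins, UNC93B1 escorts the nucleic-acid-sensing Toll-like receptors to endosomes, and signalling from such receptors frees the transcription factor NF-kB to enter the nucleus. NF-kB then induces the cytokine and chemokine genes together with Nfkbia, whose product IkB alpha captures NF-kB again, while SOCS3, induced through STAT factors, limits signalling of cytokine receptors. In the brain these genes are best known from microglia, the resident macrophages.

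The stretches below are the promoter matches nearest to that circuit, shown so that the sites named in the text can be seen. They come from RefSeq promoters (GRCm38.p6, 250 bases before to 50 bases after the start), which held 7 of the 10 genes, namely Il1a, Il1b, Tnf, Ccl3, Nfkbia, Socs3 and Tlr2. Both strands were searched for the kappaB consensus, the site type bound by NF-kB, for the STAT motif TTCNNNGAA, for the TATA motif TATAAA and for the AP-1 motif TGANTCA. Capitals mark the match, and all 6 stretches are read on the minus strand, where the genes lie. The Nfkbia stretch is chr12:55492648-55492747, the Tlr2 stretch chr3:83841768-83841790, the Socs3 stretch chr11:117969503-117969530, the Il1a stretch chr2:129309973-129310032, the Il1b stretch chr2:129371140-129371199 and the Tnf stretch chr17:35202008-35202067. The Socs3 stretch lies in an intron of a longer Socs3 transcript of GENCODE M21, and the other 5 lie upstream of the GENCODE gene.
Nfkbia: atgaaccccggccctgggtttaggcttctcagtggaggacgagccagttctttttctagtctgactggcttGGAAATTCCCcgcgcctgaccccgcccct
Tlr2: aggacacctGGGGAATTCCCaca
Socs3: gaaaccagccTTCTTAGAAgggaggggg
Il1a: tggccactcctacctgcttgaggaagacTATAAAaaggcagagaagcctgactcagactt
Il1b: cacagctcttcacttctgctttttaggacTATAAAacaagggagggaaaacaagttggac
Tnf: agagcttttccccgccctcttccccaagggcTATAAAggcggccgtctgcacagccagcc

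The kappaB match of Nfkbia began at position -29 from the start, and the Tlr2 stretch held 2 overlapping kappaB matches, at -173 and -172. A further kappaB match of Tlr2 began at -8. The STAT match of Socs3 began at -154, and the TATA matches of Il1a, Il1b and Tnf began at -32, -31 and -29. Il1a also had an AP-1 match at -12, and Nfkbia a TATA match downstream of the start, at 19, on the other strand. Of all 32851 promoters of this length, 8.46% held a kappaB match, 8.3% a STAT match, 13.6% a TATA match and 7.81% an AP-1 match. The 7 genes held these in 2, 1, 4 and 1 cases, and a match describes only the letters of the window.

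Depth set what could be seen of these genes. Libraries held 1285654 to 6646655 estimated counts in control tissue and 65887 to 4782767 in dissociated tissue, and 3 dissociated libraries (CA1 replicates 2 and 3 and DG replicate 3) were under 500000. For a gene with 0 counts the upper limit was set at 3 counts, which comes to 0.444 CPM (counts per 1000000) in the deepest library and 20.5, 9.90 and 46.8 CPM in those 3 shallow ones. These limits cover counting error only. Of the 140 values (10 genes in 14 libraries), 12 were 0. Ccl2 accounted for 10 of them, and the other 2 were Tlr2 in CA1 control replicate 1 and Unc93b1 in DG dissociated replicate 3. CPM values and limits use library sizes scaled by TMM.

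Across the 3 regions, 6 of the 9 genes that could be tested were higher in dissociated tissue at an adjusted p under 0.05 and 0 were lower. The 6 were Tlr2, Il1a, Unc93b1, Tnf, Socs3 and Nfkbia. Of all 13063 genes tested, 0.727% were called higher and 0.0459% lower. The 9 genes had positive log2 fold changes from 1.10 to 2.44 with a median of 1.73, where the median of all genes was -0.11 and 41.9% of all genes were positive. All 9 were higher at an unadjusted p under 0.05, where 6.11% of all genes were. In these bulk samples more RNA per cell and more cells of the type that makes it cannot be told apart. Without the 3 shallow libraries 1 of the 9 genes, Unc93b1, passed the test, although all 9 kept a positive value between 1.07 and 2.32. Calls over all genes also fell in that fit, from 95 to 14 genes higher.

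**Figure D1:**
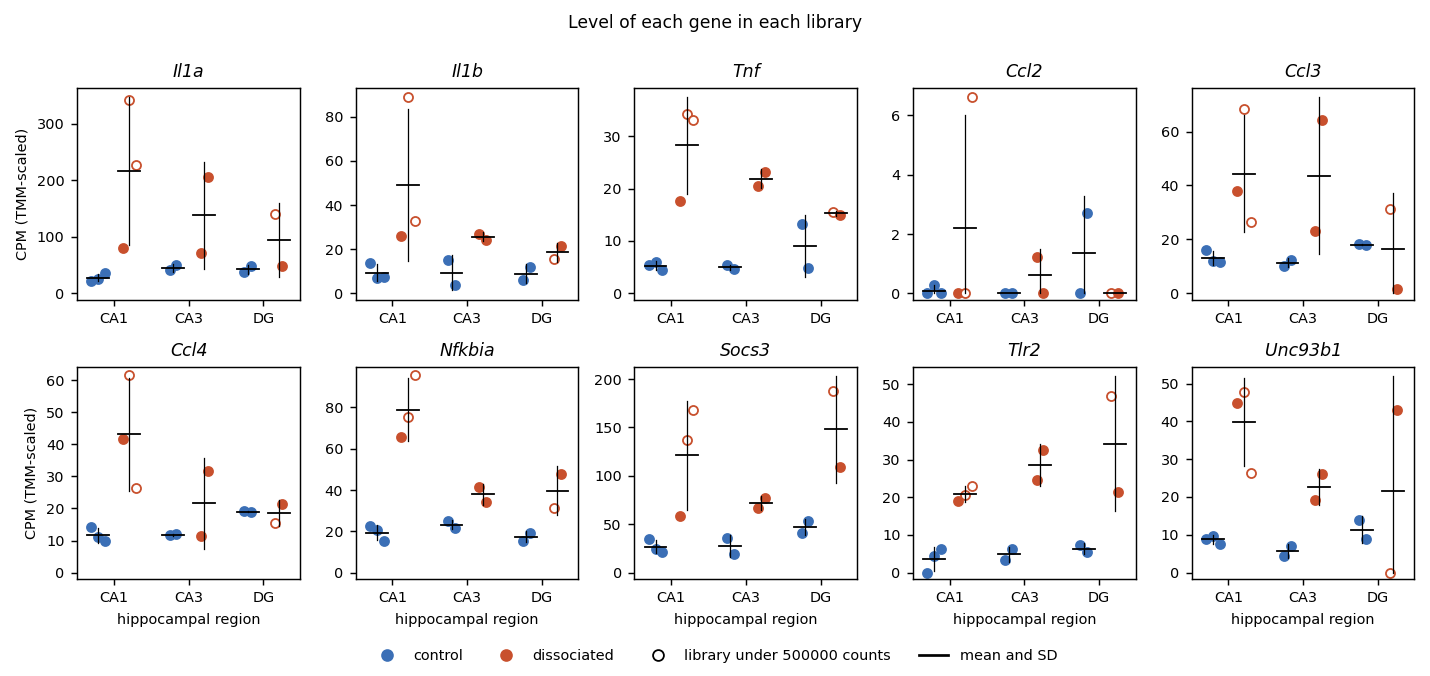
Level of each of the 10 genes in each library, in CPM on a linear axis, by hippocampal region. Blue points are control and orange points dissociated libraries, open points are the 3 libraries under 500000 counts, and black lines give the group mean with its SD, drawn no lower than 0; Tlr2 shows no overlap of the colours, and Ccl2 lies at 0 in 10 of 14 libraries.

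Among the cytokines, Il1a (ENSMUSG00000027399, chr2 129299610 to 129309972, GRCm38, 7 exons) had the largest counts. Its control levels were 22.8, 26.1 and 35.4 CPM in CA1, 40.8 and 50.8 CPM in CA3 and 37.4 and 48.2 CPM in DG. Its dissociated levels were 80.6, 341.9 and 227.7 CPM in CA1, 71.1 and 205.5 CPM in CA3 and 140.5 and 47.9 CPM in DG. Within CA1 and CA3 every dissociated library lay above every control library, and DG dissociated replicate 4, at 47.9 CPM, was the one dissociated library inside the control range. Il1a rose by 1.97 ± 0.38 (log2 fold change ± SE, edgeR, adjusted p = 0.0137), from 37.3 ± 10.4 to 159.3 ± 105.6 CPM (mean ± SD, n = 7 each). The call was lost without CA1 control replicate 2 or without CA3 dissociated replicate 4 (adjusted p up to 0.0568), and without the 3 shallow libraries the value was 1.26 (adjusted p = 0.117).

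Il1b (ENSMUSG00000027398, chr2 129364570 to 129371139, 7 exons) lies near Il1a on the same strand and did not pass the test. Its control levels were 13.9, 6.81 and 7.61 CPM in CA1, 15.1 and 3.75 CPM in CA3 and 5.86 and 12.2 CPM in DG. Its dissociated levels were 25.8, 88.9 and 33.0 CPM in CA1, 27.1 and 24.2 CPM in CA3 and 15.6 and 21.5 CPM in DG. All 7 dissociated libraries lay above all 7 control libraries, but by a margin of 15.6 to 15.1 CPM, and the 15.6 CPM rested on 1 count in DG dissociated replicate 3. The log2 fold change was 1.72 ± 0.44 (edgeR, adjusted p = 0.0717). DESeq2 called Il1b (adjusted p = 0.0015), and so did edgeR with RLE scaling (adjusted p = 0.0440) and edgeR without the filter on low counts (adjusted p = 0.0151).

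Tnf (ENSMUSG00000024401, chr17 35199381 to 35202007) stood at 5.37, 6.07 and 4.48 CPM in CA1 control, 5.34 and 4.58 CPM in CA3 control and 13.2 and 4.80 CPM in DG control libraries. After dissociation it stood at 17.6, 34.2 and 33.0 CPM in CA1, 20.6 and 23.2 CPM in CA3 and 15.6 and 14.9 CPM in DG. The 7 dissociated libraries again lay above the 7 control libraries, and the only control library near them was DG replicate 2. Tnf rose by 1.90 ± 0.45 on the log2 scale (edgeR, adjusted p = 0.0490). This call sat at the threshold, since it held in 2 of the 14 fits that leave out 1 library (without DG control replicate 2 or without DG dissociated replicate 4), and its adjusted p reached 0.170 in the others. The adjusted p was 0.175 without the 3 shallow libraries. The 15.6 CPM of DG dissociated replicate 3 was 1 count.

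The chemokines Ccl3 and Ccl4 did not pass the test across regions. Their genes lie close together on chr11, with Ccl3 (ENSMUSG00000000982, 83647844 to 83649355, minus strand, 3 exons) ending 13228 bases before Ccl4 (ENSMUSG00000018930, 83662584 to 83664683, plus strand, 3 exons) begins. In control tissue the pair moved within narrow limits, Ccl3 between 10.2 and 18.3 CPM and Ccl4 between 9.85 and 19.1 CPM, with the highest values of both in DG.

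After dissociation Ccl3 stood at 38.1, 68.4 and 26.4 CPM in CA1, 23.0 and 64.1 CPM in CA3 and 31.2 and 1.65 CPM in DG. Ccl4 stood at 41.6, 61.5 and 26.4 CPM in CA1, 11.5 and 31.6 CPM in CA3 and 15.6 and 21.5 CPM in DG. For Ccl3, 6 of the 7 dissociated libraries were above the whole control range and DG replicate 4 was below it. For Ccl4, CA3 replicate 1 and DG replicate 3 (1 count) lay inside the control range. The log2 fold changes were 1.25 ± 0.49 for Ccl3 (edgeR, adjusted p = 0.295) and 1.10 ± 0.39 for Ccl4 (adjusted p = 0.233). Ccl3 passed without DG dissociated replicate 4 (1.65, adjusted p = 0.0168), and DESeq2 called Ccl4 (adjusted p = 0.0265).

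The counts of the pair ran close together in control libraries, such as 80 and 74 in CA1 replicate 2 and 112 and 118 in DG replicate 3. They also ran close in CA1 dissociated replicate 1, with 167 Ccl3 and 182 Ccl4 counts. They came apart in the CA3 dissociated libraries, with 56 against 28 counts in replicate 1 and 69 against 34 in replicate 4, and in DG dissociated replicate 4, with 1 Ccl3 count against 13 Ccl4 counts. These differences within libraries were not tested.

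Ccl2 (ENSMUSG00000035385, chr11 82035571 to 82037453, plus strand, 3 exons), the main monocyte attractant of the group, was too sparse to test and was removed by the filter on low counts. It had 24 counts in all, of which 19 were in control libraries and 5 in dissociated ones. DG control replicate 3 alone held 17, CA1 control replicate 2 held 2, CA1 dissociated replicate 3 held 2 and CA3 dissociated replicate 1 held 3. The other 10 libraries were at 0. In the dissociated libraries at 0 that allows up to 0.685 CPM in CA1 replicate 1, 20.5 CPM in CA1 replicate 2, 2.79 CPM in CA3 replicate 4, 46.8 CPM in DG replicate 3 and 4.96 CPM in DG replicate 4. In the control libraries at 0 the limit was between 1.25 and 2.20 CPM. A rise of Ccl2 to the level of the other chemokines was thus not detectable in DG dissociated replicate 3, whereas in CA1 dissociated replicate 1 the limit of Ccl2 was 0.685 CPM beside 38.1 CPM of Ccl3.

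The feedback genes Nfkbia and Socs3 had the smallest standard errors of the 9 genes. Nfkbia (ENSMUSG00000021025, chr12 55489410 to 55492647, minus strand, 6 exons), which carries the kappaB match printed above, stood at 22.4, 20.6 and 15.2 CPM in CA1 control, 24.8 and 21.7 CPM in CA3 control and 15.4 and 19.2 CPM in DG control libraries. After dissociation it stood at 65.8, 75.2 and 95.7 CPM in CA1, 41.5 and 34.4 CPM in CA3 and 31.2 and 47.9 CPM in DG. No dissociated library fell into the control range, and the 3 CA1 libraries were the highest. The 31.2 CPM of DG dissociated replicate 3 was 2 counts. Its 95% Poisson range (counting error only), 3.76 to 112.1 CPM, covers the whole control range. Nfkbia rose by 1.43 ± 0.29 on the log2 scale (edgeR, adjusted p = 0.0173), from 19.9 ± 3.56 to 56.0 ± 23.8 CPM (mean ± SD, n = 7 each). The call was lost without CA1 control replicate 2 or replicate 3 (adjusted p up to 0.0742), and without the shallow libraries the value was 1.29 (adjusted p = 0.0929).

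Socs3 (ENSMUSG00000053113, chr11 117966079 to 117970047, minus strand) had the smallest adjusted p of the group. Its control levels were 34.4, 24.6 and 21.04 CPM in CA1, 35.9 and 19.6 CPM in CA3 and 41.0 and 52.8 CPM in DG. Its dissociated levels were 58.9, 136.8 and 168.3 CPM in CA1, 66.6 and 77.2 CPM in CA3 and 187.3 and 109.1 CPM in DG. Every dissociated library was above every control library, with the DG pair highest among the control libraries. Socs3 rose by 1.73 ± 0.28 on the log2 scale (edgeR, adjusted p = 0.00393), from 32.8 ± 11.99 to 114.9 ± 50.8 CPM (mean ± SD, n = 7 each). It passed in all 14 fits that leave out 1 library, where its value ran from 1.54 to 1.90, and did not pass without the 3 shallow libraries together (1.27, adjusted p = 0.0606).

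Of the receptor genes, Tlr2 (ENSMUSG00000027995, chr3 83836272 to 83841767, minus strand, 3 exons) had the highest fold change of the group and the lowest counts of the tested genes in control tissue. Its control levels were 0, 4.29 and 6.27 CPM in CA1, 3.40 and 6.25 CPM in CA3 and 7.33 and 5.44 CPM in DG. Its dissociated levels were 19.0, 20.5 and 23.1 CPM in CA1, 24.7 and 32.5 CPM in CA3 and 46.8 and 21.5 CPM in DG. The lowest dissociated library was above the highest control library by 19.0 to 7.33 CPM. The values of CA1 dissociated replicates 2 and 3 and DG dissociated replicate 3 were 3, 7 and 3 counts. The 95% Poisson range of CA1 dissociated replicate 2, 4.22 to 59.8 CPM, reached into the control range. The 0 in CA1 control replicate 1 allows up to 1.34 CPM, below the 3.40 to 7.33 CPM of the other control libraries.

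Tlr2 rose by 2.44 ± 0.53 on the log2 scale (edgeR, adjusted p = 0.0229), from 4.71 ± 2.46 to 26.9 ± 9.84 CPM (mean ± SD, n = 7 each). It passed in 8 of the 14 fits that leave out 1 library. The call was lost without any of CA1 control replicate 2, CA3 control replicates 1 and 4, and the dissociated libraries CA1 replicate 1, CA3 replicate 4 and DG replicate 3, with adjusted p up to 0.0744 and values from 2.23 to 2.64. The adjusted p was 0.117 without the shallow libraries, at a value of 2.32.

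Unc93b1 (ENSMUSG00000036908, chr19 3935186 to 3949340, plus strand) stood at 8.94, 9.77 and 7.61 CPM in CA1 control, 4.37 and 7.08 CPM in CA3 control and 13.9 and 8.81 CPM in DG control libraries. After dissociation it stood at 45.0, 47.9 and 26.4 CPM in CA1, 19.3 and 26.03 CPM in CA3 and 0 and 43.0 CPM in DG. Of the 7 dissociated libraries, 6 were above all control libraries. The 0 in DG replicate 3 allows up to 46.8 CPM and so holds no information on whether that library was high or low. Unc93b1 rose by 1.92 ± 0.39 on the log2 scale (edgeR, adjusted p = 0.0183), and it was the gene that passed without the shallow libraries (2.12, adjusted p = 0.0228). It passed in 9 of the 14 fits that leave out 1 library. The call was lost without any of CA1 control replicates 2 and 3, CA3 control replicate 1, and the dissociated libraries CA1 replicate 1 and CA3 replicate 4 (adjusted p up to 0.0716).

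**Figure D2:**
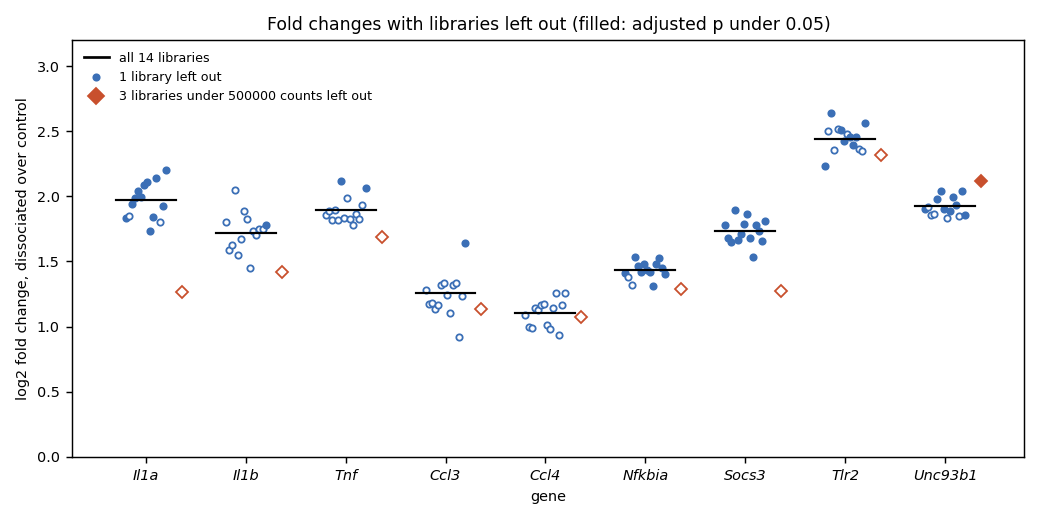
Log2 fold change of each tested gene, dissociated over control across regions, with all 14 libraries (black line), with 1 library left out (blue points) and without the 3 libraries under 500000 counts (orange diamonds). Filled symbols passed the test; Socs3 is filled in all 14 blue points, and Unc93b1 is the only gene with a filled diamond.

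Complete separation of the arms was counted apart from the model. All 7 dissociated libraries were above all 7 control libraries for 5 of the 9 genes (Il1b, Tnf, Nfkbia, Socs3 and Tlr2), where 0.245% of all genes tested were so separated. Within CA1 all 9 genes were separated (7.16% of all genes) and within CA3 8 of 9, all but Ccl4 (15.7%). Within DG the same 5 as over all libraries were separated (8.25%). These 5 were thus separated in each region, where 0.597% of all genes were. In DG dissociated replicate 3 the separation rested on 1 count each of Il1b and Tnf, 2 of Nfkbia, 3 of Tlr2 and 12 of Socs3. There 1 count was 15.6 CPM, above all control libraries of Il1b and Tnf. The 95% Poisson ranges of Il1b, Tnf and Nfkbia in that library began at 0.39, 0.39 and 3.76 CPM and so included control levels. On the authors' TPM scale, which corrects for transcript length and is not scaled by TMM, 2 of the 9 were separated over all libraries, Il1a (54.6 against 54.8 TPM at the edge) and Tlr2 (5.02 against 9.74 TPM).

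Within single regions fewer genes passed, all of them in CA1. In CA1 (3 against 3), 3 of the 9 genes were called higher, where 0.191% of all genes were called in either direction. These were Il1a at 2.87 ± 0.51 (edgeR, adjusted p = 0.0305), Nfkbia at 2.00 ± 0.40 (adjusted p = 0.0455) and Socs3 at 2.11 ± 0.43 (adjusted p = 0.0474). The other 6 had values between 1.66 and 2.50 and adjusted p from 0.177 to 0.296. DESeq2 called 8 of the 9 in CA1, and it also called more of all genes there, 206 against 25 by edgeR. Without the shallow libraries 1 dissociated CA1 library is left, and that fit cannot measure the spread within this arm. With 1 library left out, Il1a passed in 9 of 14 fits and Nfkbia and Socs3 in 5 each. All 3 calls were lost without any 1 of the 3 CA1 control libraries or CA1 dissociated replicates 2 and 3 (adjusted p up to 0.238 for Il1a and 0.389 for the other 2). Those of Nfkbia and Socs3 were also lost without any 1 of the 4 CA3 libraries.

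In CA3 (2 against 2) edgeR called 0 of the 9 genes and 0% of all genes, and DESeq2 also called 0 of both. At an unadjusted p under 0.05 there were 6 of the 9 genes (Il1a, Tnf, Ccl3, Socs3, Tlr2 and Unc93b1), where 2.55% of all genes reached it in that direction and 4% in either. All 9 values were positive, from 0.72 for Nfkbia to 2.54 for Tlr2. In DG (2 against 2) edgeR and DESeq2 each called 0 of the 9 genes, where edgeR called 0.161% of all genes in either direction. At an unadjusted p under 0.05 there were 2 genes by edgeR, Nfkbia at 1.32 ± 0.53 and Socs3 at 1.52 ± 0.54. By edgeR 3.09% of all genes were higher at that level, and 14.1% reached it in either direction. DESeq2 had 4 of the 9 genes at that level, where 12.4% of all genes reached it in either direction. The other DG values ran from -1.65 ± 1.12 for Ccl3 and 0.09 ± 0.74 for Ccl4 to 2.18 ± 1.05 for Tlr2.

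**Figure D3:**
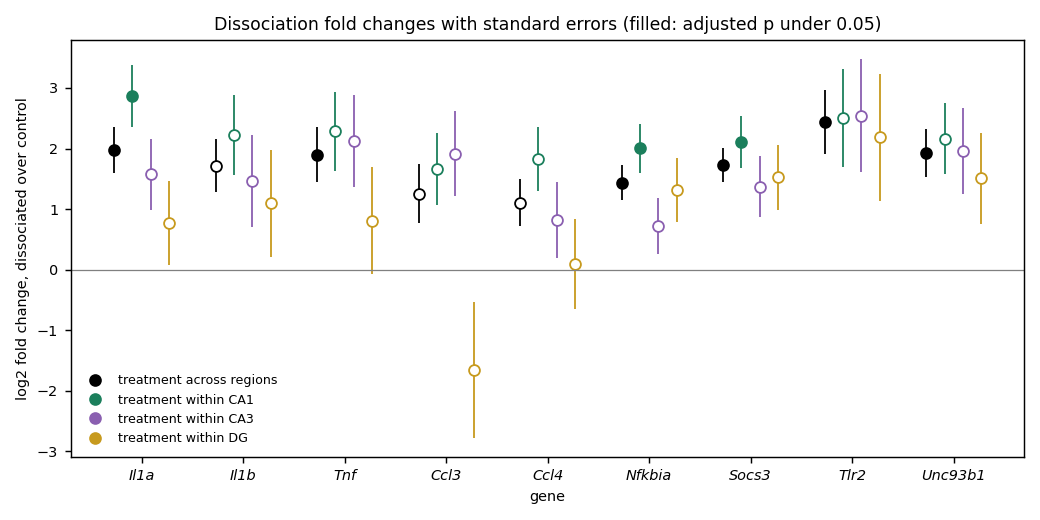
Log2 fold change of each tested gene, dissociated over control, with its standard error, across regions (black) and within CA1, CA3 and DG. Filled points passed the test; Ccl3 in DG, at -1.65, is the only point below 0, and Tlr2 lies between 2.18 and 2.54 in all 4 comparisons.

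Whether the regions differed in their response was tested by the interaction of treatment and region. It called 0 of the 9 genes with edgeR and 0 with DESeq2, and 0% of all genes with edgeR. At an unadjusted p under 0.05 there was 1 gene, Ccl3 (edgeR adjusted p = 0.551), where 8.51% of all genes reached that level. Il1a followed (adjusted p = 0.594). Ccl3 had 3 counts in all in the 2 dissociated DG libraries, so its DG value rests on very few reads.

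Levels of the genes between regions, taken over both treatments, did not pass either. Of the 9 genes, edgeR and DESeq2 called 0 in CA1 against DG, 0 in CA3 against DG and 0 in CA1 against CA3, where edgeR called 4.06%, 1.77% and 0.115% of all genes. At an unadjusted p under 0.05, edgeR had 0, 1 and 0 of the 9 genes, beside 15.7%, 12% and 5.37% of all genes. DESeq2 had 0, 2 and 1 of the 9, beside 19.3%, 15% and 7.1% of all genes. The gene by edgeR was Socs3, lower in CA3 than in DG by a log2 difference of -0.87 ± 0.36 (adjusted p = 0.304).

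Levels of different genes were compared per length, as TPM. In control tissue the order by median TPM (lowest to highest library in brackets) began with Ccl4 at 57.3 (47.2 to 81.8), Ccl3 at 45.5 (40.8 to 63.2) and Il1a at 44.4 (27.4 to 54.6). Socs3 at 31.2 (15.6 to 45.1) and Nfkbia at 29.7 (21.5 to 40.9) followed, then Il1b at 14.6 (6.06 to 29.6), Unc93b1 at 8.98 (4.82 to 12.98), Tnf at 8.45 (5.95 to 17.6) and Tlr2 at 3.89 (0 to 5.02), with Ccl2 listed at 0 (0 to 8.87). Neighbours in this order overlapped in their ranges except Tnf and Tlr2.

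In dissociated tissue Il1a was first at 109.2 TPM (54.8 to 336.7), followed by Ccl4 at 103.7 (39.3 to 232.0), Socs3 at 94.0 (36.2 to 130.2), Ccl3 at 84.4 (5.89 to 209.9) and Nfkbia at 68.9 (25.5 to 126.3). Then came Il1b at 37.2 (18.6 to 134.1), Unc93b1 at 26.8 (0 to 42.2), Tnf at 23.9 (17.0 to 47.3), Tlr2 at 14.9 (9.74 to 23.0) and Ccl2 at 0 (0 to 19.5). All neighbours in this order overlapped. From Nfkbia downwards the order was that of control tissue.

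The transcript tables add that 8 of the 10 genes have 1 transcript each there, so their counts were not divided within the gene. Nfkbia, which is among these 8, had estimated counts that were not whole in some libraries. Examples are 49.75 in CA1 control replicate 1 and 1.63 in DG dissociated replicate 3, so some of its reads were shared with transcripts outside the gene. Tnf and Unc93b1 have 2 transcripts each. Tnf-001, the longer Tnf transcript of 1639 bases, held 91.0% of pooled control and 91.5% of pooled dissociated counts, but each library gave it either all Tnf counts (10 libraries) or 0 (4 libraries). Unc93b1-201, of 1991 bases, held 25.9% of pooled Unc93b1 counts in control and 2.56% in dissociated tissue, where its 8 counts all came from CA1 replicate 3. These splits are estimates for transcripts with shared sequence and were not tested.

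The rest of the pathway was read from 7 lists with 212 further genes, of which 144 passed the filter on low counts. Across regions 3 of the 144 were higher and 0 lower, where 0.727% and 0.0459% of all genes were. Of the 144, 108 had positive values, where 41.9% of all genes did, and the median was 0.65. The 3 called higher were Csf1r, the receptor for the microglial survival factor CSF1, Cx3cr1, the fractalkine receptor, and Plau, the urokinase-type protease. Csf1r rose by 1.69 ± 0.23 (edgeR, adjusted p = 0.0016), Cx3cr1 by 1.84 ± 0.26 (adjusted p = 0.0016) and Plau by 3.00 ± 0.53 (adjusted p = 0.0075). Plau did not pass without the shallow libraries (1.72, adjusted p = 0.0929). Csf1r and Cx3cr1 also stand on the list of microglia markers.

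By list, the members named above included, 2 of 13 tested cytokines, 0 of 12 chemokines, 2 of 31 cytokine and chemokine receptors and 2 of 26 genes of Toll-like receptor signalling were called higher. For NF-kB factors, kinases and inhibitors it was 1 of 29 and for JAK-STAT and SOCS genes 1 of 25. For effectors induced by NF-kB it was 1 of 17, and 0 were called lower in any list. Of all genes tested, 0.727% were called higher. Without those members, 0 of 10 tested cytokines, 0 of 10 chemokines and 0 of 24 genes of Toll-like receptor signalling were called higher. The same count was 0 of 28 for the NF-kB list and 0 of 24 for JAK-STAT and SOCS genes. The calls in these lists were thus of genes already described. Median log2 fold changes were highest for the induced effectors, at 1.15, and lowest for JAK-STAT and SOCS genes, at 0.16, beside -0.11 for all genes. Chemokines had 0 calls with edgeR. The most abundant chemokine, Cx3cl1, the ligand of CX3CR1 that neurons make, had 673.7 ± 218.5 CPM in control tissue and 460.3 ± 168.2 CPM after dissociation (-0.52 ± 0.19, adjusted p = 0.255).

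The other genes named here from these lists did not pass the test. Zfp36, which destabilises cytokine mRNA, had a value of 1.13 ± 0.29 (edgeR, adjusted p = 0.0705), Nfkbiz, an atypical IkB protein, 1.07 ± 0.41 (adjusted p = 0.289) and Cd83 1.43 ± 0.40 (adjusted p = 0.109). The most abundant gene of the Toll-like receptor list, the chaperone gene Hsp90b1, had a value of 0.06 ± 0.19, and Tollip -0.08 ± 0.23. Of the NF-kB list the most abundant was Cyld, a deubiquitinase, at -0.21 ± 0.25, and of the induced effectors Sod2, a mitochondrial dismutase, at 0.12 ± 0.21. The 3 most abundant JAK-STAT and SOCS genes were Ptpn11 at 0.42 ± 0.19, Jak1 at -0.29 ± 0.19 and Socs7 at 0.02 ± 0.26, and none of these 7 genes passed the test.

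Markers of several cell types moved in the same libraries. All 26 microglia markers had positive values and 13 of 26 were called higher, where 41.9% of all genes were positive and 0.727% called higher. The median log2 fold change of these markers was 1.69, beside 1.73 for the 9 genes. The summed level of the markers was 460.6 to 756.7 CPM in control and 881.2 to 3603.8 CPM in dissociated libraries, and none was at 0 throughout. Among oligodendrocyte markers, 10 of 12 were called higher (median 1.94), among markers of their precursors 2 of 4 (median 1.38), of endothelium 1 of 13 (median 0.45), of astrocytes 0 of 12 (median 0.73), of red blood cells 0 of 5 (median 1.13) and among neuron markers 0 of 11 (median -0.18). Markers of pericytes and smooth muscle summed to 2528.6 CPM, from 162 counts, in DG dissociated replicate 3 and to 67.6 to 316.1 CPM in the other libraries. The part of these cells in the values of the 9 genes was not tested.

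Of 17 markers of peripheral leukocytes, which also make these cytokines, 2 could be tested and 0 were called. Plac8, S100a8, S100a9, Cd3e, Ngp and Cd2 were among those at 0 in all 14 libraries. The summed level of these 17 was 0.447 to 9.93 CPM in control and 0 to 49.5 CPM in dissociated libraries. The 8 markers of border macrophages summed to 3.66 to 28.6 CPM in control and 4.96 to 62.4 CPM in dissociated libraries, with 1 of them testable (Stab1, 1.56 ± 0.46, edgeR adjusted p = 0.125) and Ms4a7 at 0 throughout. The part of peripheral leukocytes and border macrophages was not tested.

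Counted per 1000 counts of the 26 microglia markers, the arms overlapped for all 9 genes over the 7 and 7 libraries, where 28.2% of all genes lay wholly lower after dissociation and 0% wholly higher. The median was higher in dissociated libraries for 3 genes and lower for 6, where it was lower for 97.6% of all genes. Il1a had a median of 70.3 (30.1 to 76.8) in control and 83.3 (34.7 to 102.8) in dissociated libraries. Tlr2 had 8.53 (0 to 14.01) and 13.4 (5.69 to 27.8), and Tnf 8.76 (6.34 to 25.2) and 9.60 (7.56 to 16.9). These were the 3 genes with a higher median after dissociation.

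Nfkbia had a median of 30.1 (29.4 to 40.6) per 1000 microglia counts in control and 27.0 (14.2 to 54.4) in dissociated libraries. Socs3 had 47.8 (27.1 to 82.8) and 43.4 (25.3 to 123.8), Il1b 16.5 (5.19 to 24.7) and 14.9 (9.26 to 24.7), and Unc93b1 13.8 (7.17 to 26.6) and 12.6 (0 to 48.8). For Ccl3 the medians were 23.1 (16.7 to 35.01) and 16.4 (1.88 to 26.5), and for Ccl4 21.3 (16.7 to 36.4) and 13.1 (7.50 to 24.4). On this scale, unlike in CPM, 6 of the 9 medians were thus lower after dissociation.

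Within regions the ratios separated for a few genes. Ccl4 was lower in every dissociated library than in every control library of its region in all 3 regions, which held for 46.1% of all genes. Ccl3 was wholly lower in CA1 and in DG, and Nfkbia in CA3. The share of all genes wholly lower within a single region was not taken, but it cannot be under 46.1%. In DG, Socs3 stood at 111.1 and 123.8 per 1000 microglia counts after dissociation and at 78.4 and 82.8 in control, and Tlr2 stood at 27.8 and 24.4 against 14.01 and 8.53. These 2 of 9 genes were above all control libraries in DG, where 1.77% of all genes were. In CA3 it was 3 of 9 (Tnf, Tlr2 and Unc93b1), where 0.896% of all genes were, and in CA1 0 of 9, where 0.0459% were. With 2 libraries in an arm, and 3 Tlr2 counts behind one of the DG ratios, these separations are described without a test.

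**Figure D4:**
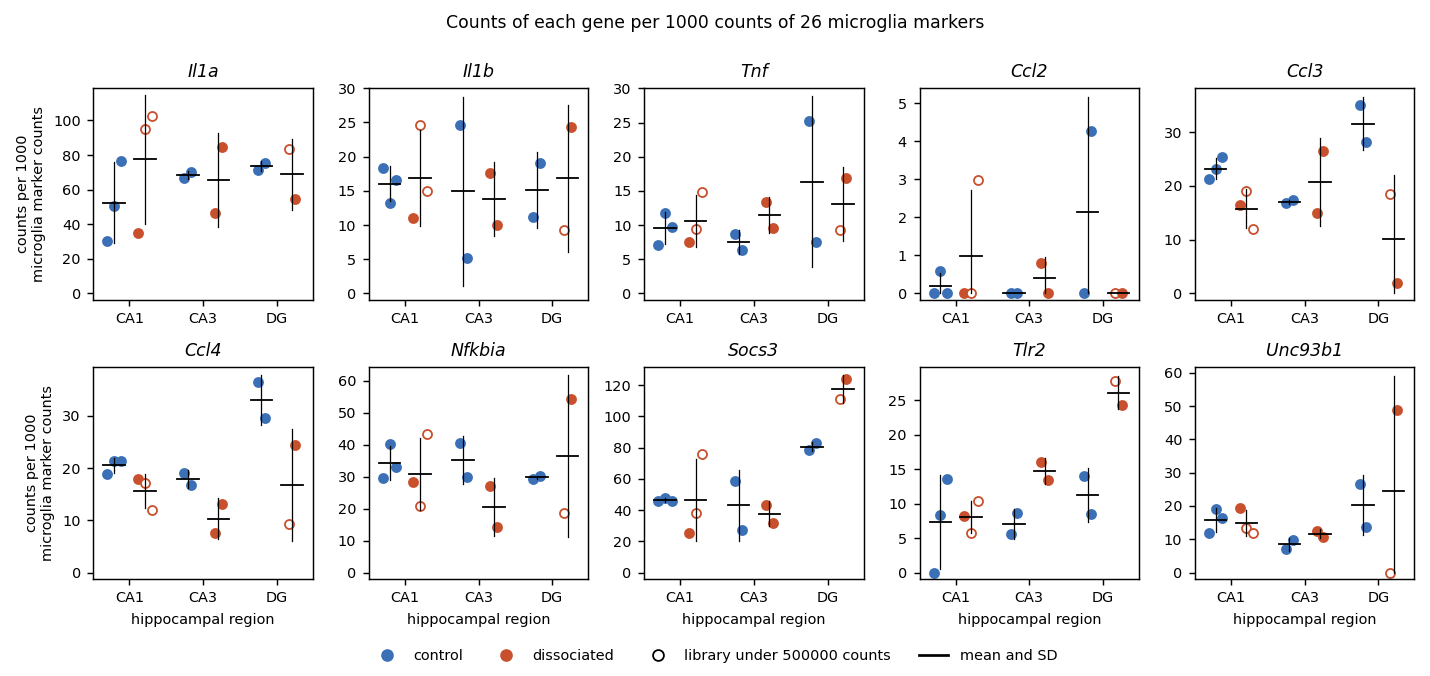
Counts of each gene per 1000 counts of 26 microglia markers in each library, on a linear axis, by region, with colours, open points and lines as in the plot of CPM levels (SD drawn no lower than 0). The arms overlap for all 9 tested genes, and Ccl4 lies lower after dissociation in each of the 3 regions.

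The genes with the most similar pattern were taken from the 11513 genes that averaged 5 CPM or more, by Pearson's correlation of log2 CPM over the 14 libraries, which share their treatment arms and their depth. The correlations are descriptions only, and of the 25 distinct genes that were nearest to any of the 9, 5 were microglia markers, beside 0.217% of the 11513 genes. Il1a was nearest to Mcl1 (0.96), Ctss (0.92) and Icam1 (0.91), and Il1b to Rnf19b, Dusp1 and Nfkbia (each 0.85). Tnf was nearest to Slco2b1 (0.89), Mpeg1 (0.88) and C1qb (0.88), and Nfkbia to C1qb (0.86), Cd33 (0.85) and Il1b (0.85). For Ccl3 they were Arap3 (0.95), Lcp1 (0.93) and Itgb5 (0.92), and for Ccl4 they included Slco2b1 (0.85) and Rbck1 (0.83). Socs3 ran nearest to Ctcfl (0.95), Pros1 (0.93) and Igf2bp2 (0.90), Tlr2 to Cd63 (0.90), Inpp5d (0.89) and Adpgk (0.88), and Unc93b1 to Fcrls (0.94), Decr1 (0.93) and Cav1 (0.92). Without the 3 shallow libraries the same pairs had 0.91 for Il1a with Mcl1, 0.68 for Il1b with Rnf19b and 0.79 for Unc93b1 with Cav1.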

How the data were processed

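RNA-seq was deposited for 14 hippocampal libraries. The submitters' processing notes name kallisto, cutadapt, FastQC and DESeq2. The genome build and annotation release behind the estimates were not given in the sources used here. Files deposited by the authors hold estimated counts and TPM per transcript (58716 transcripts, per the file headers) and a gene table of estimated counts, each within 0.5 of the summed transcripts. kallisto assigns reads shared by several transcripts in proportion, so near-identical transcripts can exchange counts. Gene places are from GENCODE M21 (GRCm38), matched by identifier for 10 of 10 genes.

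The whole counts of the gene table entered edgeR 4.0.16 (R 4.3.3). filterByExpr (minimum count 10, minimum total 15, 6 groups) left 13063 of 22485 genes, libraries were scaled by TMM, and the quasi-likelihood F test was run on region plus treatment (10 residual degrees of freedom) or on group means (8) in 8 comparisons. P-values were adjusted by Benjamini-Hochberg over all genes, called under 0.05, and standard errors came from the F statistic. CPM is the count per 1000000 of the scaled library size. Alternatives were DESeq2 1.42.0, RLE and upper-quartile scaling, no filter, a replicate block, TPM, each library left out, and the 3 libraries under 500000 counts left out. The fit was tested on simulated data. The genes, the lists and the tests were chosen with earlier results of these data known. In each pathway list up to 3 genes with the highest mean CPM and those that passed could be named, and for each gene the 3 with the most similar pattern. A few genes eligible under this rule are not reported here.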

Additional observations from a re-analysis of the deposited data

Results flagged for a closer look

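Each gene's CPM in the 7 control and in the 7 dissociated libraries was examined for a library far from the others by Dixon's ratio. The critical value was 0.568 for 7 libraries, and 4 of 20 sets had one above it. That value marks about 1 in 20 sets of normally distributed values. These CPM come from libraries of unequal depth, and Ccl2 was at 0 in 5 of 7 libraries of each arm. The 4 sets can therefore not be set against that share. Il1b stood at 88.9 CPM in CA1 dissociated replicate 2, a library of 135065 counts in which this was 13 counts. Tnf stood at 13.2 CPM in DG control replicate 2, from 18 counts. Ccl2 stood at 2.72 CPM in DG control replicate 3, from 17 counts, and at 6.60 CPM in CA1 dissociated replicate 3, from 2 counts.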

How the results depend on the processing

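With all 14 libraries, 6 of the 9 tested genes passed across regions. Without the 3 libraries under 500000 counts 1 passed, and with 1 library left out 1 to 8 passed, the 1 (Socs3) without CA1 control replicate 2. The log2 fold changes of all 9 stayed positive across regions in every setting run. On the TPM scale 2 genes, not 5, had complete separation of the arms, and the cause was not tested. Depth limits the DG and CA1 dissociated values most.

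After removal of group means, correlations of same-numbered libraries ran from -0.16 to 0.07 over 6 pairs, with 0 over 0.1. With 2 libraries in each arm of CA3 and DG these correlations are tied to each other, so the check cannot exclude pairing. The numbers were not taken as pairs in the main fit. With the replicate block 7 of the 9 genes passed across regions, and 216 of all genes were higher and 164 lower. The block gave 11 other pathway genes higher, and for all genes 299 calls in CA1, 22 in CA3, 94 in DG and 39 for the interaction. In DG only replicate 3 is in both arms, so the DG values and calls under the block compare 1 library with 1. That dissociated library is the shallowest, with 65887 counts in all, 2 of Ccl3 and 1 of Ccl4. Under the block the DG value of Ccl3 turned to 0.80, that of Ccl4 to -0.27 and that of Unc93b1 to -7.35. The Unc93b1 value, and its lowest with 1 library left out, rest on the 0 count of DG dissociated replicate 3, whose limit is 46.8 CPM, and give no size of a change.

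Across regions the count of all genes higher (95) was 154 with RLE scaling, 275 without the filter, 411 with DESeq2 and 14 without the shallow libraries, and the count lower (6) was 70 without the filter, 67 with DESeq2 and 0 without the shallow libraries. Leaving out 1 library gave 37 to 203 higher and 0 to 51 lower. Other pathway genes higher (3) were 7 with RLE scaling, 14 without the filter, 23 with DESeq2 and 3 to 12 with 1 library left out. The median of all genes (-0.11) was -0.00 with DESeq2 and -0.14 to -0.08 with 1 library left out.

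In CA1, 8 of the 9 genes passed with DESeq2, 0 without the shallow libraries and 0 to 3 with 1 library left out, and of all genes (25) 271 passed without the filter, 206 with DESeq2, 0 without the shallow libraries and 0 to 111 with 1 library left out. In CA3, 29 of all genes passed without the filter. In DG (21) it was 261 without the filter, 104 with DESeq2, 432 without the shallow libraries and 1 to 70 with 1 left out. For the interaction (0) it was 128 without the filter, 28 with DESeq2, 5 without the shallow libraries and 0 to 5 with 1 left out. CA1 against DG (530) gave 900 without the filter, 998 with DESeq2, 801 without the shallow libraries and 212 to 771 with 1 left out. CA3 against DG (231) gave 616, 499, 366 and 57 to 594 in the same order, and CA1 against CA3 (15) gave 127, 63, 71 and 7 to 73.

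With 1 library left out, the value in DG ran from -3.43 to 0.78 for Ccl3, from -0.29 to 0.16 for Ccl4 and from -7.74 to 1.93 for Unc93b1, and Ccl4 in CA3 ran from -0.010 to 1.40. A fit that leaves 1 library in an arm assumes that it varies like the other groups.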
